A study of Arabidopsis thaliana with 18 samples.

Results

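Seedlings of Arabidopsis thaliana were raised for 3 days in darkness at 21 °C on half-strength Murashige and Skoog medium, and the question here is which genes answered sucrose differently when the transcription factor GNL was overexpressed. The measure is a difference of 2 differences: the change with sucrose in GNLox, the overexpression line, minus the change with sucrose in Col-0, the wild type. It uses 12 of the 18 libraries of the series, 3 in each of 4 groups: Col-0 without sucrose, Col-0 with 1% sucrose, GNLox without sucrose and GNLox with 1% sucrose. The other 6 libraries come from the double mutant gnc gnl and entered the fit only to estimate the spread. Both media hold the same mineral salts, and the labels give neither the promoter that drives GNL in GNLox nor the number of independent transgenic lines. Nothing says that replicates came from separate cultures, so the p-values speak only of the spread among these samples, which may be technical. RNA came from whole seedlings, so fewer cells of a type and less RNA per cell cannot be told apart. Of 32833 genes in the files, 21903 had enough reads to be tested.

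GNL (also CGA1) and its close relative GNC are B-class GATA factors, which bind GATA-containing DNA and are known in Arabidopsis for promoting chlorophyll synthesis and chloroplast development and for acting downstream of light, cytokinin and gibberellin signals. Sucrose is both a carbon source and a signal in dark-grown seedlings: starved cells break down protein and slow ribosome production, while sugar-fed cells activate the kinase TOR, which promotes ribosome production and growth. Ribosome production starts in the nucleolus, where RNA polymerase I makes the ribosomal RNA precursor and small nucleolar RNA-protein particles modify it before it is cut and assembled with proteins.

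GNL (AT4G26150, chr4:13253084-13255106, plus strand) was far higher in all 6 GNLox libraries. Its level was 5130, 6290 and 6190 CPM (read counts scaled to a common library size) in GNLox without sucrose and 4460, 5280 and 2840 CPM with it. In Col-0 it was 5.85, 21.8 and 12.9 CPM without sucrose and 0.971, 2.38 and 2.36 CPM with it. In the authors' deposited TPM values, which are scaled for gene length, GNL stood at 3740 to 7200 in GNLox and at 0.876 to 23.5 in Col-0. The log2 response of GNL to sucrose was -2.81 ± 0.44 (SE) in Col-0 and -0.49 ± 0.38 in GNLox, and the difference of 2.32 ± 0.57 did not pass (edgeR adjusted p = 0.0626). Leaving out single libraries moved that p between 0.0177 and 0.173. GNC (AT5G56860, chr5:22989216-22991530, minus strand) was at 17.3, 35.4 and 29.4 CPM in Col-0 without sucrose, 12.5, 18.6 and 12.1 CPM with it, 13.2, 14.9 and 21.3 CPM in GNLox without sucrose and 5.17, 8.73 and 4.18 CPM with it. Its response differed by -0.51 ± 0.40 on the log2 scale, which did not pass (edgeR adjusted p = 0.626).

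Total gene reads per library in the 4 groups were 30508391 to 41942516. GNLox replicate 3 without sucrose stood apart from the others of its group, with 25.43% of reads from nuclear ribosomal RNA and 23.29% from plastid genes. Lowest of the 12 in both shares were the 3 sucrose-fed GNLox libraries, at 1.002% to 4.396% and 0.915% to 1.548%. Fits to nuclear genes only and without nuclear ribosomal RNA genes called 245 and 247 genes, 244 and 242 of them shared with the 245 genes given later. The fit without the library that stood apart is given for the number of calls and for some lists, and not gene by gene. Markers of endodermis (CASP1 at 102 TPM or more in every library) and of shoot (LHCB1.3 at 1060 TPM or more) were present. The flower markers AP1 and AG had at most 1 and 2 reads, while the flower marker SEP3 had 2 to 21 reads (0.0863 to 0.772 TPM). The root hair markers PRP3, COBL9 and EXPA7 ran from 0 TPM to 31.5, 3.19 and 7.45 TPM.

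Most of the sucrose response was shared by the 2 genotypes. Sucrose changed 10903 genes in Col-0 (49.8% of those tested) and 11997 in GNLox (54.8%), and 8656 genes were called in both, 79.4% of the Col-0 list and 72.2% of the GNLox list. Of these, 8600 moved the same way and 56 the opposite way. The 2 responses rest on different libraries, and across the 21903 genes they had a Pearson correlation of 0.77 and a Spearman correlation of 0.815, given as a description because genes of 1 library are not independent. The median size of the log2 response was 0.406 in Col-0 and 0.454 in GNLox. The difference of the responses shares 6 libraries with each of them, so the values of both responses are given beside it from here on.

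The responses differed for 245 genes (1.12% of those tested; edgeR quasi-likelihood test, Benjamini-Hochberg adjusted p under 0.05). In 167 genes (0.762%) the response was higher in GNLox and in 78 (0.356%) it was lower. The smallest adjusted p was 0.0186. Without Col-0 replicate 2 or replicate 3 of the medium without sucrose, 2 genes were left, and without GNLox replicate 3 of that medium 26 were left, 12 higher and 14 lower. When single libraries were dropped, in 12 further fits, all 245 genes kept an unadjusted p under 0.05, while 1 gene, AT4G25730, stayed below the adjusted threshold in all 12. The unadjusted result is little evidence of stability, since the genes were selected for a small p and each further fit reuses most libraries. The split also depends on the fit: with only the 4 groups it was 74 higher and 114 lower, and with DESeq2 435 higher and 438 lower.

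**Figure D1:**
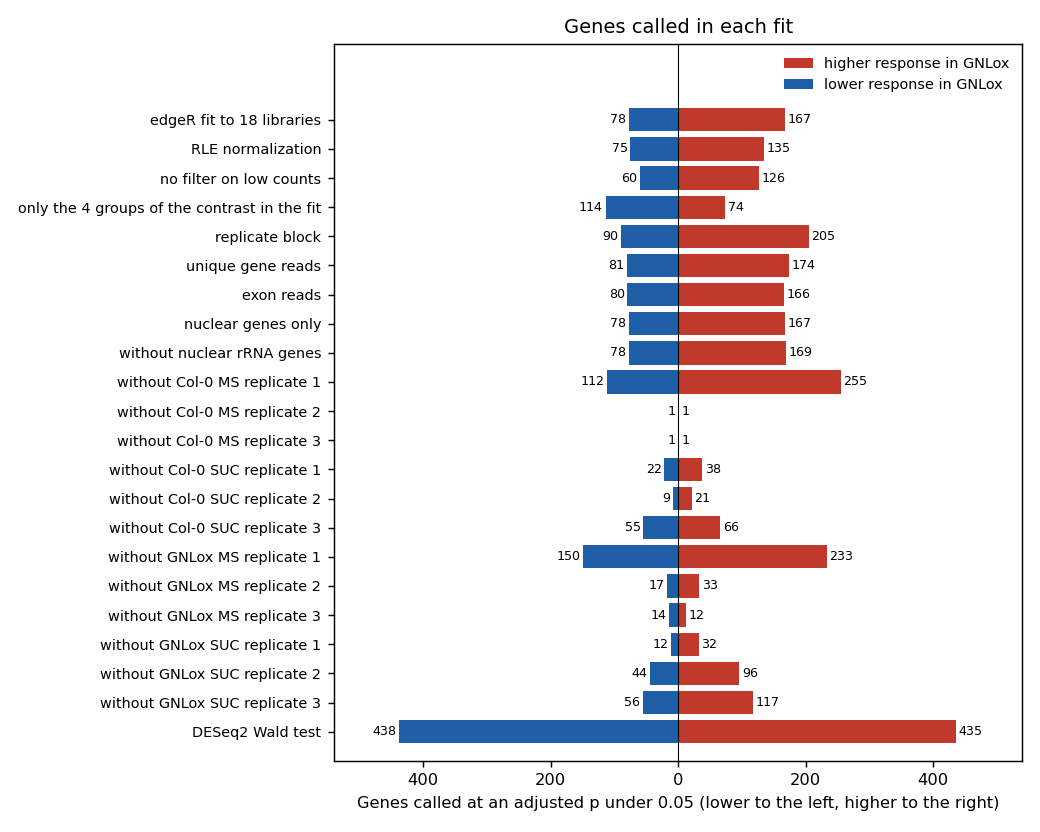
Number of genes called at an adjusted p under 0.05 (x axis, lower response to the left and higher to the right of 0) in the edgeR fit to 18 libraries and in each other fit (y axis). The counts run from 1 and 1, when Col-0 replicate 2 or 3 without sucrose is left out, to 435 and 438 with DESeq2.

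**Figure D2:**
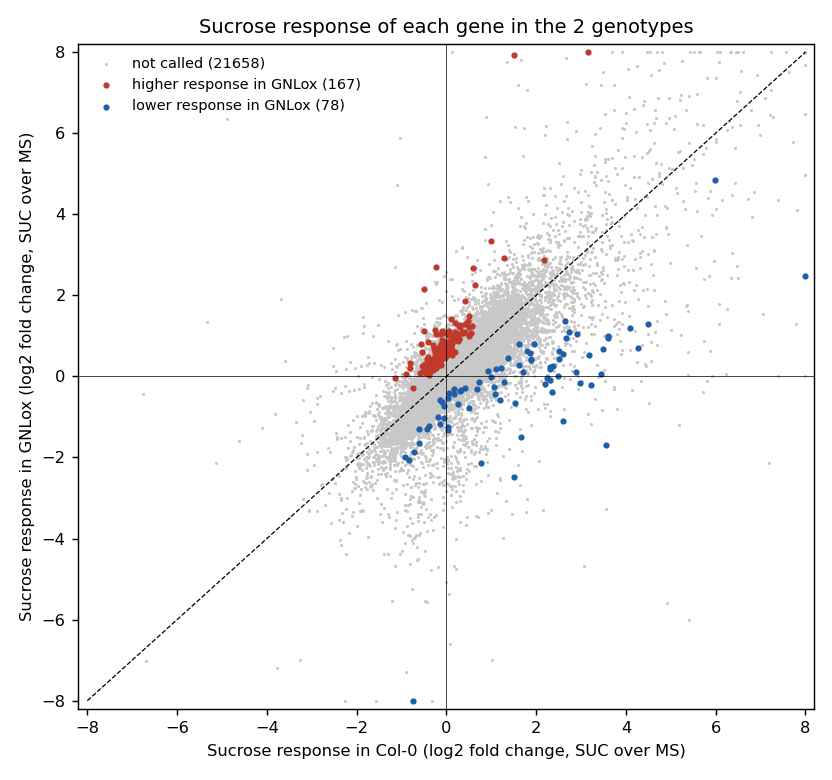
Each point is 1 of the 21903 genes tested, placed by its log2 response to sucrose in Col-0 (x axis) and in GNLox (y axis); values beyond 8 are drawn at the edge and the dashed line marks equal responses. The 167 genes with a higher response in GNLox (red) lie above the line of equal responses, with a median Col-0 response of -0.10, and the 78 with a lower response (blue) lie below it, with a median Col-0 response of 1.58.

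The 2 sets of called genes differed in how their difference arose. The higher set had a median response of -0.10 in Col-0 and 0.63 in GNLox on the log2 scale. Of its 167 genes, sucrose raised 24 and lowered 48 in Col-0, and raised 149 and lowered 1 in GNLox. Before sucrose, 89 of them were lower in GNLox than in Col-0 and 0 higher (background 7.0% and 6.53% of genes tested), and with sucrose 109 were higher and 0 lower (background 10.2% each). The lower set had a median response of 1.58 in Col-0 and -0.15 in GNLox: sucrose raised 56 of the 78 in Col-0 and 16 in GNLox, and lowered 7 and 30 (background in Col-0 26.0% raised and 23.8% lowered, in GNLox 28.7% and 26.1%). The comparisons between genotypes share 6 libraries each with the difference of responses, so these counts describe how the called genes differ and add no independent evidence.

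AT4G25730 (chr4:13102662-13106864, minus strand), annotated as an FtsJ-like methyltransferase, a family that methylates RNA, was the 1 gene that passed in every left-out fit. It stood at 38.5, 43.8 and 40.7 CPM in Col-0 without sucrose and at 35.8, 36.4 and 34.4 CPM with it. In GNLox it stood at 33.1, 30.2 and 32.1 CPM without sucrose and at 47.0, 49.2 and 45.4 CPM with it. No pair of the 4 groups overlapped, and the GNLox groups were the lowest and the highest. The response was -0.21 ± 0.07 in Col-0 (edgeR adjusted p = 0.0218) and 0.57 ± 0.07 in GNLox (edgeR adjusted p = 1.24e-05), a difference of 0.78 ± 0.10 (edgeR adjusted p = 0.0186, and 0.00545 to 0.0482 over the left-out fits).

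Ribosome biogenesis held the most called genes of the 37 lists. The list was written with earlier results of these data known, so its counts describe it and add no independent evidence. Of its 19 members, all tested, 8 had a higher response in GNLox and none a lower one (background 0.762% and 0.356%), and 17 had an unadjusted p under 0.05, as did 14.9% of all genes tested. The list's median difference was 0.56, against -0.001 over all genes tested. It was 0.50 to 0.61 over the left-out fits and 0.54 without the GNLox library that stood apart. The calls themselves fell to 0 in 6 of those fits. The median response of the list was -0.09 in Col-0, where 4 members rose and 4 fell, and 0.41 in GNLox, where 16 rose and none fell. Summed over the 19 genes, the level was 724, 839 and 799 CPM in Col-0 without sucrose and 757, 800 and 737 CPM with it, and 674, 695 and 647 CPM in GNLox without sucrose and 933, 1050 and 913 CPM with it. The 3 GNLox libraries without sucrose were therefore the lowest of the 12 and the 3 with sucrose the highest.

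The transcription step was represented by subunits of RNA polymerases I and III, a family picked after its values were seen. Of 5 tested, 3 passed (background 0.762%, from which nothing is read for a family picked this way). NRPA2, the second largest subunit of polymerase I, was at 33.7, 39.4 and 40.4 CPM in Col-0 without sucrose, 31.4, 31.0 and 28.4 CPM with it, 26.2, 29.4 and 28.0 CPM in GNLox without sucrose and 30.6, 36.9 and 32.4 CPM with it. It fell in Col-0 and rose in GNLox, a difference of 0.58 ± 0.12 (edgeR adjusted p = 0.0319). NRPA2 overlaps the antenna gene LHCB1.3 on the opposite strand, and since the strand of the reads is not stated, reads from the overlap cannot be told apart. RPAC42, a subunit of both polymerases, was at 7.84, 7.43 and 6.88 CPM in Col-0 without sucrose and 6.69, 7.18 and 6.07 CPM with it, against 6.33, 5.76 and 6.06 CPM and then 8.92, 9.19 and 9.85 CPM in GNLox. The GNLox libraries with sucrose were above all the others, and the difference of 0.77 ± 0.12 (edgeR adjusted p = 0.0186) passed in 9 of 12 left-out fits. NRPC2, of polymerase III, differed by 0.65 ± 0.13 (edgeR adjusted p = 0.0273), while the largest subunits NRPA1 and NRPC1 differed by 0.45 and 0.24 and did not pass (edgeR adjusted p = 0.157 and 0.43). NUC-L1, the nucleolin that acts on ribosomal DNA, was level in Col-0 (141, 170 and 154 CPM, then 153, 169 and 150 CPM) and rose in GNLox from 151, 143 and 127 CPM to 220, 237 and 207 CPM. Its difference was 0.64 ± 0.13 (edgeR adjusted p = 0.0311). NUC-L1 overlaps AT1G48930 on the opposite strand, with the same limit as NRPA2.

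The core proteins of the nucleolar particles that methylate or pseudouridylate ribosomal RNA were picked after their values were seen. Of 11 tested, 6 had a higher response in GNLox (background 0.762%, from which nothing is read for families picked this way) and all 11 estimates were above 0. FIB1, the fibrillarin that carries the methyltransferase activity, fell in Col-0 from 133, 156 and 145 CPM to 107, 114 and 115 CPM. In GNLox it was already low without sucrose (107, 104 and 102 CPM) and rose slightly, to 115, 126 and 117 CPM. The difference was 0.56 ± 0.10 (edgeR adjusted p = 0.0225). NOP5-1, a scaffold of the same particles, had 18.1, 21.7 and 20.4 CPM and then 24.5, 26.6 and 23.6 CPM in Col-0, and 15.1, 16.8 and 14.1 CPM and then 35.0, 38.9 and 33.9 CPM in GNLox. Its groups did not overlap at all, and the difference of 0.91 ± 0.16 (edgeR adjusted p = 0.0188) passed in 9 of 12 left-out fits. NAP57, the pseudouridine synthase known as dyskerin in mammals, rose in GNLox from 18.7, 21.9 and 21.0 CPM to 46.2, 57.9 and 44.7 CPM, against 26.5, 34.3 and 33.4 CPM to 37.8, 40.2 and 37.5 CPM in Col-0. Its difference was 0.98 ± 0.20 (edgeR adjusted p = 0.0321). NOP56, NOP10 and the NHP2-like gene AT5G08180 also passed, with differences of 0.68, 0.63 and 0.79, NOP56 with an overlapping gene, AT1G56105, on the opposite strand. FIB2, the second fibrillarin, rose in both genotypes, by 1.04 and 1.98 on the log2 scale, and its difference of 0.94 ± 0.30 did not pass (edgeR adjusted p = 0.137).

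PES, BOP1 and WDR12 form the complex that matures the large ribosomal subunit, a family also picked after its values were seen. Each of the 3 genes passed (background 0.762%, from which nothing is read here either). PES was at 46.8, 57.5 and 53.1 CPM in Col-0 without sucrose and at 40.8, 43.1 and 42.7 CPM with it, and at 35.3, 37.6 and 32.8 CPM and then 41.5, 52.7 and 46.1 CPM in GNLox. It thus fell with sucrose in Col-0 (-0.31 ± 0.10, edgeR adjusted p = 0.0151) and rose in GNLox (0.41 ± 0.10, edgeR adjusted p = 0.00263), a difference of 0.72 ± 0.14 (edgeR adjusted p = 0.0249). BOP1 was at 49.3, 59.2 and 53.6 CPM and 49.1, 54.1 and 48.3 CPM in Col-0, against 40.4, 39.3 and 39.4 CPM and 57.8, 67.3 and 56.8 CPM in GNLox. WDR12 was at 14.7, 18.9 and 16.8 CPM and 14.5, 14.8 and 14.4 CPM in Col-0, against 12.2, 13.8 and 13.9 CPM and 17.1, 20.0 and 17.6 CPM in GNLox. For both, the GNLox libraries without sucrose were the lowest of the 12, and the differences were 0.71 ± 0.13 and 0.66 ± 0.14 (edgeR adjusted p = 0.0249 and 0.0381). These calls held in 6, 4 and 1 of the 12 left-out fits for PES, BOP1 and WDR12.

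Promoters of the called genes were read from the reference genome for motifs, as a description of the 250 bases before each annotated gene start, searched on both strands. The I-box GATAAG, a motif of the kind that GATA factors bind, was in 26.9% of 78 promoters of the lower set, 6.59% of 167 of the higher set and 12.5% of all 21742 read. The sugar-response motif TATCCA, whose letters can overlap those of the I-box, was in 20.5%, 8.98% and 14.1%. The telo-box AAACCCTA, known from promoters of plant ribosomal protein genes, was in 0%, 8.38% and 3.45%. The evening element AAAATATCT was in 2.56%, 1.8% and 2.36%, and the G-box CACGTG in 6.41%, 5.39% and 7.18%. For 2 motifs added after the values were seen, TGGGCC (a form of the site II element) was in 6.41%, 31.7% and 15.7%, and TTGAC (the core of the W-box bound by WRKY factors) in 60.3%, 40.7% and 45.3%. No test was made of these shares.

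Promoters of FIB1, a called member of the ribosome biogenesis list, and of BOP1 and WDR12, called members of the family picked later, are shown. They were chosen with their motifs known. FIB1 and BOP1 hold a telo-box together with TGGGCC, a pair in 7 of 167 promoters of the higher set (4.19%, against 0.957% of all). WDR12 holds no telo-box. FIB1 and WDR12 hold an I-box, which was less frequent in the higher set (6.59%) than in all promoters (12.5%). Of the 19 promoters of the list, 1 held an I-box, that of FIB1. The sequences are the 250 bases before the gene start in the TAIR10.1 assembly of RefSeq, 5′ to 3′ on the gene's strand. Motifs on either strand are in capitals. Neither these promoters nor the ones shown later overlap another annotated gene.
FIB1 (chr5:21293897-21294146, plus strand): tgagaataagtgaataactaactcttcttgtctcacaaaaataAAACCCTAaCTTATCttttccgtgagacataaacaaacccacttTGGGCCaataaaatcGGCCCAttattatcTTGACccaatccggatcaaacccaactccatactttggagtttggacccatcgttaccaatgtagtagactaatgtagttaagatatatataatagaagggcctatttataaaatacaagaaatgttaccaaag
BOP1 (chr2:16856772-16857021, minus strand): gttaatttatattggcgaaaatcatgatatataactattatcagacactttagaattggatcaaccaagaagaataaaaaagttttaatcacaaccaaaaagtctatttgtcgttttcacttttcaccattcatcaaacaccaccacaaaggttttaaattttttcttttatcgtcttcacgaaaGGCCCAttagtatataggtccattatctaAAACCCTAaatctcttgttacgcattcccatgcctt
WDR12 (chr5:5062145-5062394, minus strand): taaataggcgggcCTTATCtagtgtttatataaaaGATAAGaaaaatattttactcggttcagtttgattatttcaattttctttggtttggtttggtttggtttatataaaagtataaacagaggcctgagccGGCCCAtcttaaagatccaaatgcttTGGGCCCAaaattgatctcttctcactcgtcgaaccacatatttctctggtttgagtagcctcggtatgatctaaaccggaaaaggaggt
FIB1 holds a telo-box that starts 207 bases before the gene and is followed by an I-box in reverse at 198 bases, 2 copies of TGGGCC and 1 TTGAC. BOP1 holds a telo-box at 36 bases and TGGGCC in reverse at 65 bases. WDR12 holds 3 copies of TGGGCC, 2 of which overlap at 90 and 88 bases, and 2 I-boxes.

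**Figure D3:**
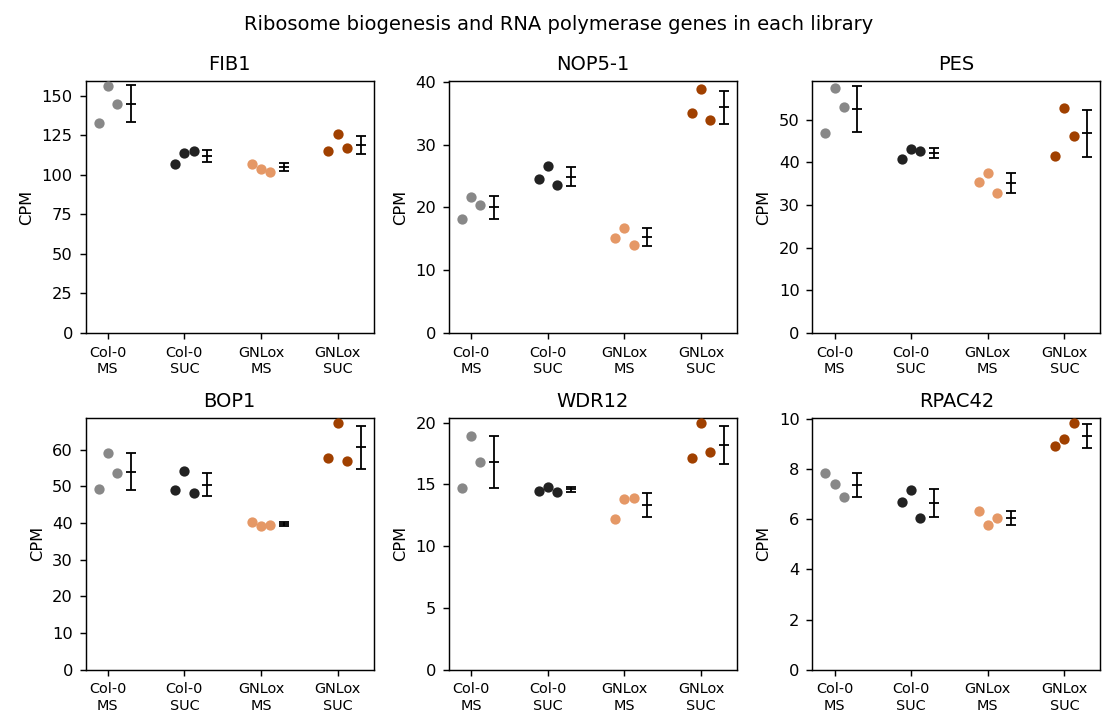
Levels in CPM (y axis, from 0) of 6 ribosome biogenesis and RNA polymerase genes in the 3 libraries of each of 4 groups (coloured points); black marks are the group mean with its SD. In each panel the GNLox libraries are lower than the Col-0 libraries without sucrose, and they rise with sucrose while Col-0 falls or changes less.

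Other genes of ribosome assembly and of RNA processing passed as well. The list members TOZ, a WD-repeat protein of small subunit processing, and APUM24, a Pumilio protein of precursor cleavage, differed by 0.65 and 0.62. EDA25, annotated as a CCAAT-binding factor, fell in Col-0 from 33.6, 41.0 and 40.1 CPM to 27.9, 31.8 and 27.7 CPM and rose in GNLox from 27.1, 27.6 and 24.9 CPM to 31.6, 37.1 and 33.0 CPM (difference 0.75 ± 0.12, edgeR adjusted p = 0.0186). EMB2777, a Sas10/U3 family protein, differed by 0.73 ± 0.14 (edgeR adjusted p = 0.0249). STRS2, a DEAD-box RNA helicase, fell in Col-0 from 27.3, 34.5 and 30.7 CPM to 20.8, 22 and 22.8 CPM and rose in GNLox from 21.9, 23.0 and 21.1 CPM to 23.9, 28.6 and 25.3 CPM, a difference of 0.73 ± 0.13 (edgeR adjusted p = 0.0188). RRP6L2, a nuclease of the nuclear exosome, was nearly the same within every group: 36.6, 37.4 and 37.3 CPM, then 30.9, 31.9 and 31.3 CPM in Col-0, and 31.4, 30.5 and 31.5 CPM, then 35.7, 36.6 and 36.0 CPM in GNLox. Its difference of 0.46 ± 0.07 (edgeR adjusted p = 0.0186) passed in 10 of 12 left-out fits. The list member APUM23, which acts in precursor processing too, did not pass: it differed by 0.28 ± 0.11 (edgeR adjusted p = 0.215). The reference annotation places 24 of the 167 genes of the higher set in the nucleolus (14.4%) and 0 of the 73 annotated genes of the lower set, against 0.9% of the 20770 annotated genes tested. This and the other location words were chosen after the values were seen. The endomembrane system was named for 2.4% of the higher set, 31.5% of the lower set and 10.7% of all. Extracellular space or apoplast was named for 0.599%, 8.22% and 1.16%. Chloroplast was named for 8.98%, 8.22% and 11.6%, and plasma membrane for 5.39%, 6.85% and 7.87%. The 35 cytosolic ribosomal protein genes on the list had a median difference of 0.22, with 34 estimates above 0 and none called (11 with an unadjusted p under 0.05, background 14.9%, and 0 called by DESeq2). Sucrose raised 28 of them in Col-0 (background 26.0%) and 30 in GNLox (28.7%), with medians of 0.42 and 0.67.

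Of the 167 genes of the higher set, 22 have an annotated location that names mitochondria (13.2%, against 3.6% of annotated genes tested). In the lower set the share was 2.74%, and this word too was chosen after the values were seen. The families described next were picked after the values were seen, and their counts stand beside the same background of 0.762%. Of the 5 prohibitin genes tested, which form a ring complex in the inner membrane, 4 passed (PHB1, PHB3, PHB4 and PHB6). PHB6 was at 20.9, 22.4 and 20.3 CPM and 22.7, 21.0 and 20.1 CPM in Col-0, and at 13.4, 13.9 and 11.7 CPM without and 19.6, 20.1 and 21.3 CPM with sucrose in GNLox, a difference of 0.64 ± 0.10 (edgeR adjusted p = 0.0186). The GNLox libraries without sucrose lay below all the rest. PHB2 differed by 0.36 ± 0.15 and did not pass (edgeR adjusted p = 0.264).

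Among the 7 MORF genes tested, which encode factors of RNA editing in mitochondria and plastids, MORF1, MORF5, MORF6 and MORF8 passed, with differences of 0.80, 0.66, 0.61 and 0.57. MORF6 was at 12.7, 12.6 and 12.4 CPM and 13.4, 12.7 and 12.3 CPM in Col-0, and at 6.93, 7.44 and 7.62 CPM and 10.2, 12.2 and 11.7 CPM in GNLox, so that sucrose brought it near the Col-0 level. PMH1, a mitochondrial RNA helicase, showed the same form: 14.1, 18.5 and 16.9 CPM and 17.4, 19.1 and 15.1 CPM in Col-0, then 8.27, 8.44 and 8.24 CPM and 16.3, 20.7 and 17.2 CPM in GNLox. Its difference was 1.06 ± 0.18 (edgeR adjusted p = 0.0186, passing in 9 of 12 left-out fits).

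LON1, a protease of the mitochondrial matrix, differed in form. It was alike in 3 groups (14.9, 15.3 and 14.4 CPM, 17.2, 17.0 and 15.5 CPM, and 16.6, 14.2 and 15.9 CPM) and higher in GNLox with sucrose, at 31.0, 27.9 and 28.7 CPM. The difference of 0.75 ± 0.11 (edgeR adjusted p = 0.0186) passed in 10 of 12 left-out fits. The matrix chaperones HSP90-6, mtHsc70-1 and HSP60-3A passed with differences of 0.59, 0.68 and 0.62, and MTHSC70-2, HSP60 and HSP60-2 did not (0.45, 0.36 and 0.83, edgeR adjusted p = 0.114, 0.274 and 0.0529). The protease LON4, the remaining member of the 8 tested, had an estimate of the opposite sign, -0.52 ± 0.50 (edgeR adjusted p = 0.712).

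Purine synthesis, also a family picked after the values were seen, supplies the bases of RNA and ATP, and 3 of its 13 tested genes passed (background 0.762%): AT2G35040, the enzyme that closes the purine ring, AT2G37690, the AIR carboxylase, and AT1G63660, the GMP synthase. AT2G35040 was at 34.2, 37.6 and 37.3 CPM and 34.3, 36.0 and 32.9 CPM in Col-0 and at 33.1, 32.1 and 34.0 CPM and 46.2, 48.4 and 43.3 CPM in GNLox, a difference of 0.55 ± 0.09 (edgeR adjusted p = 0.0186). The GNLox libraries with sucrose were above all 9 others. AT1G63660 and AT2G37690 differed by 0.83 and 0.87, and AT2G37690 has overlapping genes on the opposite strand. The 9 genes tested for subunits of the cytosolic CCT chaperonin, which folds actin and tubulin, were also picked after the values were seen. CCT1 and CCT7 passed (background 0.762%), with a difference of 0.41 each. CCT1 overlaps AT3G20040 on the opposite strand. The family's median was 0.29.

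Some single genes linked to sugars were called, while the starch and sucrose list had 0 of 64 tested members called (12 with an unadjusted p under 0.05, background 14.9%, and 3 called by DESeq2), 45 estimates below 0 and a median of -0.12. TPPB, a trehalose-6-phosphate phosphatase that removes a signal of sucrose status, rose in Col-0 from 1.37, 1.45 and 1.09 CPM to 3.17, 2.50 and 3.82 CPM. In GNLox it rose from 0.596, 0.643 and 0.466 CPM to 5.30, 3.97 and 3.89 CPM, a difference of 1.62 ± 0.34 (edgeR adjusted p = 0.0343). Its relative TPPG went the other way: 10.3, 5.89 and 6.96 CPM to 28.1, 27.9 and 27.8 CPM in Col-0 and 13.6, 10.8 and 10.3 CPM to 17.6, 14.9 and 19.5 CPM in GNLox, a difference of -1.28 ± 0.28 (edgeR adjusted p = 0.0392). The other 7 members tested of this family, which was picked after the values were seen, did not pass (background 0.762% higher and 0.356% lower). FLZ5, of a zinc finger family that binds the starvation kinase SnRK1, rose from 1.12, 0.811 and 0.984 CPM to 5.23, 3.42 and 5.43 CPM in GNLox and from 2.54, 2.73 and 2.15 CPM to 4.21, 3.57 and 3.71 CPM in Col-0 (difference 1.63 ± 0.28, edgeR adjusted p = 0.0188). GolS2, which makes the precursor of raffinose sugars, was at 3.17, 4.62 and 2.56 CPM in Col-0 with sucrose and at 24.5, 12.4 and 13.1 CPM in GNLox (difference 2.67 ± 0.57, edgeR adjusted p = 0.0374).

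For WOX4 and GRP3S the difference between the genotypes passed without sucrose (-1.34 and -0.76, edgeR adjusted p = 0.00156 and 0.00111) and did not pass with it (-0.02 and 0.21, edgeR adjusted p = 0.952 and 0.202). WOX4, a homeobox factor of vascular cambium, had 0.72, 0.559 and 0.57 CPM in GNLox without sucrose against 1.56, 1.87 and 1.32 CPM in Col-0, and 1.90, 1.41 and 1.74 CPM against 1.44, 1.82 and 1.84 CPM with it. GRP3S, a glycine-rich cell wall protein, was abundant: sucrose lowered it in Col-0 from 3110, 2990 and 2910 CPM to 1540, 1580 and 1690 CPM. In GNLox GRP3S was near the lower level on both media, at 1830, 1860 and 1640 CPM and at 2080, 1660 and 1850 CPM, a difference of 0.97 ± 0.16 (edgeR adjusted p = 0.0186).

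AT5G44400, a berberine bridge enzyme-like oxidoreductase, and BAHD1, an acyltransferase, had 0 reads in all 3 GNLox libraries without sucrose. AT5G44400 had 26, 51 and 38 reads in GNLox with sucrose, at least 28.3-fold more with 3 reads over the group taken as the limit, and rose 2.98-fold in Col-0. BAHD1 had 72, 57 and 84 reads there, at least 52.4-fold more, and rose 9.09-fold in Col-0. Their differences passed (edgeR adjusted p = 0.0186 and 0.0325).

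Several genes of defence and stress in the lower set rose with sucrose in Col-0, and in GNLox they rose less or did not pass. CBP60G (AT5G26920, chr5:9475679-9478777, plus strand), a calmodulin-binding factor that promotes salicylic acid synthesis, is 1 of them. It was at 14.8, 17.8 and 14.3 CPM in Col-0 without sucrose and at 126, 137 and 105 CPM with it. In GNLox it was at 22.9, 18.9 and 17.9 CPM without sucrose and at 15.1, 22.3 and 16.5 CPM with it. The 3 Col-0 libraries with sucrose stood alone, and the other 9 overlapped. The response was 2.97 ± 0.47 in Col-0 and -0.15 ± 0.45 in GNLox, a difference of -3.12 ± 0.64 (edgeR adjusted p = 0.0323, passing in 2 of 12 left-out fits with a range of 0.044 to 0.0909). CBP60G was the 1 called member of the 39 immunity genes tested (background 0.762% higher and 0.356% lower). Of the 39, 10 had an unadjusted p under 0.05 (background 14.9%), and the median difference was -0.31. In that list 27 members rose in Col-0 (background 26.0%) and 22 in GNLox (28.7%).

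GSTF6 and GSTF7, neighbouring glutathione transferase genes of the phi class induced by stress, were also raised mainly in Col-0. GSTF7 rose in Col-0 from 45.2, 45.5 and 30.5 CPM to 354, 388 and 357 CPM, and in GNLox it went from 56.8, 55.7 and 56.3 CPM to 70.1, 86.3 and 88.6 CPM. The difference of -2.64 ± 0.45 (edgeR adjusted p = 0.0188) passed in 7 of 12 left-out fits. GSTF6 went from 7.94, 7.20 and 4.41 CPM to 138, 146 and 151 CPM in Col-0 and from 9.19, 10.8 and 15.6 CPM to 24.2, 32.3 and 30.3 CPM in GNLox (difference -3.18 ± 0.62, edgeR adjusted p = 0.0273). The class was picked after the values were seen, and its other 7 tested members did not pass (background 0.762% higher and 0.356% lower). Among them was GSTF9, which rose by 1.89 and 2.08 on the log2 scale in the 2 genotypes.

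PER4, a secreted peroxidase, rose in Col-0 from 2.41, 1.71 and 1.74 CPM to 22.5, 24.3 and 24.4 CPM and in GNLox from 6.58, 5.17 and 5.34 CPM to 8.14, 15.1 and 9.85 CPM. DIR5, a dirigent protein of phenolic coupling, rose from 0.26, 0.46 and 0.311 CPM to 6.62, 6.11 and 4.94 CPM in Col-0 and from 0.372, 0.95 and 0.57 CPM to 1.17, 1.65 and 1.5 CPM in GNLox. The chitinase gene CHI rose in Col-0 from 28.3, 21.8 and 16.0 CPM to 116, 129 and 95.5 CPM and was at 24.4, 19.9 and 21.7 CPM and at 24.6, 20.2 and 34.6 CPM in GNLox. In all 3 genes the Col-0 libraries with sucrose were above every other library, with differences of -2.65 ± 0.47, -2.90 ± 0.59 and -2.10 ± 0.42 (edgeR adjusted p = 0.022, 0.0298 and 0.0286). MPK11, a kinase of pattern-triggered immunity, and CYP81F2, which modifies indole glucosinolates in defence, passed with differences of -2.39 ± 0.53 and -2.60 ± 0.58 (edgeR adjusted p = 0.043 and 0.0444), the former in 0 and the latter in 1 of the left-out fits. CYP81F2 was the 1 called member of the 33 glucosinolate and myrosinase genes tested (background 0.762% higher and 0.356% lower), a list with a median difference of 0.1.

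Promoters of GSTF7, DIR5 and PER4 are shown for the lower set, chosen with their I-boxes known, which 21 of the 78 promoters of the set hold. They are in the same window, orientation and letter case as those of FIB1, BOP1 and WDR12.
GSTF7 (chr1:659981-660230, minus strand): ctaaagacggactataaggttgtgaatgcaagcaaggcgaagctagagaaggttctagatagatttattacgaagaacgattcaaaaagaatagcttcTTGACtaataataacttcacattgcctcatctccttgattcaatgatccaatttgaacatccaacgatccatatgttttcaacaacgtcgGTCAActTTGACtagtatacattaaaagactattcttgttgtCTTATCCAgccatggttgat
DIR5 (chr1:23813693-23813942, plus strand): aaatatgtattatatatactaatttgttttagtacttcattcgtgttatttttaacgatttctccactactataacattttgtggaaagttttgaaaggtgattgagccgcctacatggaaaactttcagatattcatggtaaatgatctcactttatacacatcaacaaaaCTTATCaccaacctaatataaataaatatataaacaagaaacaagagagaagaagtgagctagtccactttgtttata
PER4 (chr1:4975706-4975955, minus strand): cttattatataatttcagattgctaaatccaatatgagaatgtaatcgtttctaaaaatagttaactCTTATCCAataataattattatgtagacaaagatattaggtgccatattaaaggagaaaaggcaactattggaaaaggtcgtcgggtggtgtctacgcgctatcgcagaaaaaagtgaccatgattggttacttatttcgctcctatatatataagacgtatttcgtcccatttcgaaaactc
GSTF7 has an I-box in reverse at 20 bases that runs into TATCCA at 18 bases, and 3 copies of TTGAC. PER4 has the same pair of motifs at 183 and 181 bases, and DIR5 has an I-box in reverse at 78 bases.

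SEC31A (AT1G18830, chr1:6489233-6494634, plus strand) and BIP3, genes of the endoplasmic reticulum, reached the set in different ways. SEC31A, a subunit of the vesicle coat that leaves the endoplasmic reticulum, was low in Col-0 (0.293, 0.559 and 0.415 CPM) and rose with sucrose to 2.27, 2.14 and 2.13 CPM. In GNLox it was high on both media, at 4.77, 7.46 and 8.86 CPM and at 7.04, 4.70 and 4.29 CPM. The difference of -2.75 ± 0.41 (edgeR adjusted p = 0.0186) passed in 10 of 12 left-out fits. BIP3, an inducible chaperone, instead stayed near 1 CPM in GNLox (1.22, 1.29 and 1.35 CPM, then 0.832, 1.59 and 1.56 CPM) and rose in Col-0 from 0.846, 0.296 and 0.363 CPM to 4.21, 4.02 and 7.94 CPM (difference -3.37 ± 0.76, edgeR adjusted p = 0.0457). In the unfolded protein list BIP3 was the 1 called member of 19 (background 0.762% higher and 0.356% lower), and the median difference was 0.04.

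**Figure D4:**
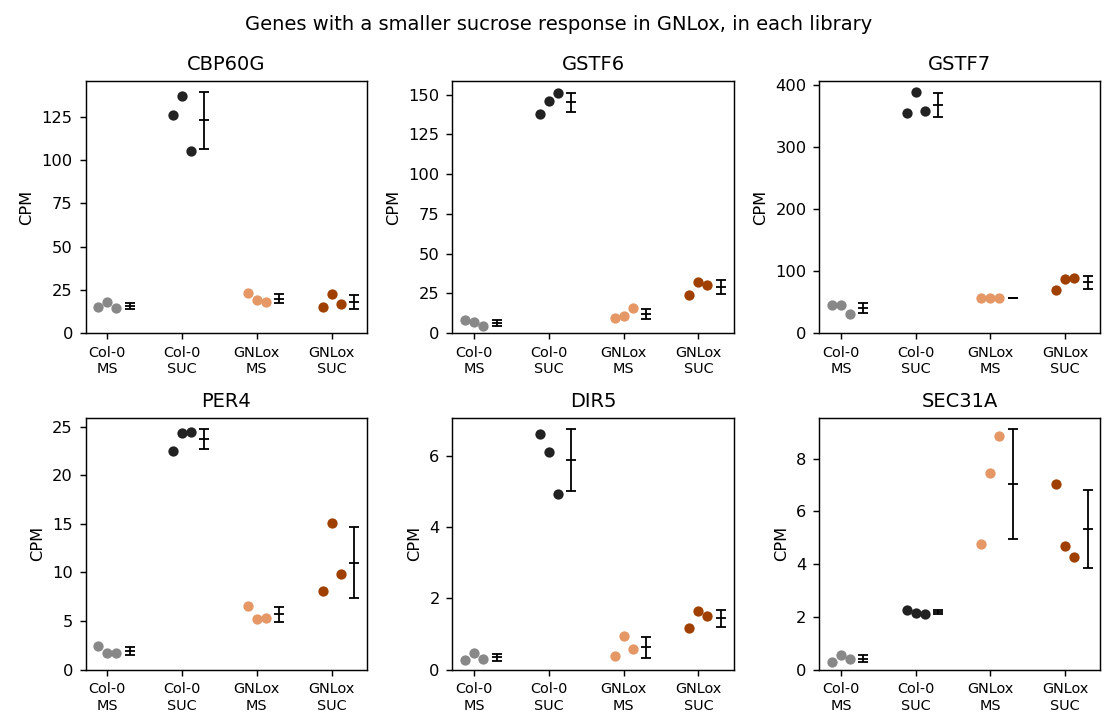
Levels in CPM (y axis, from 0) of 6 genes with a lower sucrose response in GNLox, in the 3 libraries of each of 4 groups (coloured points); black marks are the group mean with its SD. In 5 panels the Col-0 libraries with sucrose stand above all others, and in the SEC31A panel both GNLox groups stand above both Col-0 groups.

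Tryptophan synthesis feeds auxin, camalexin and indole glucosinolates. TSA1 and TRP1, enzymes of the pathway, rose in both genotypes and less in GNLox, the 2 of 11 tested members that passed (background 0.356%; the pathway's genes were picked after the values were seen). TSA1 went from 12.2, 11.6 and 9.97 CPM to 74.1, 74.0 and 63.7 CPM in Col-0 and from 19.9, 16.0 and 16.7 CPM to 46.8, 45.8 and 42.9 CPM in GNLox (difference -1.29 ± 0.28, edgeR adjusted p = 0.038). LACS2, an acyl-CoA synthetase of cutin synthesis, and LAX2, an auxin influx carrier, also rose in Col-0 more than in GNLox. LAX2 went from 14.0, 13.4 and 14.0 CPM to 29.1, 29.5 and 30.7 CPM in Col-0, while in GNLox it was at 24.7, 23.0 and 19.9 CPM and at 24.4, 26.5 and 26.3 CPM. The differences were -0.93 ± 0.19 for LACS2 and -0.92 ± 0.20 for LAX2 (edgeR adjusted p = 0.0321 and 0.0408). LACS2 was the 1 called member of the 17 cuticle genes tested and LAX2 of the 48 auxin genes tested (background 0.762% higher and 0.356% lower).

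In GNLox, sucrose lowered 30 of the 78 genes of the lower set and raised 16 (background 26.1% and 28.7%). GDPD2, a phosphodiesterase of lipid turnover known from phosphate starvation, did not pass in Col-0 (155, 119 and 148 CPM, then 134, 133 and 164 CPM) and fell in GNLox from 232, 224 and 210 CPM to 77.1, 97.3 and 94.2 CPM. Its difference of -1.34 ± 0.20 (edgeR adjusted p = 0.0186) passed in 10 of 12 left-out fits. SBT3.5, a subtilase, rose in Col-0 from 14.5, 15.2 and 14.9 CPM to 23.9, 24.7 and 22.7 CPM and fell in GNLox from 16.0, 16.4 and 15.3 CPM to 13.4, 12.1 and 13.2 CPM (difference -0.98 ± 0.14, edgeR adjusted p = 0.0186). AT4G04990, a DUF761 protein, rose in Col-0 from 8.91, 8.45 and 5.32 CPM to 23.2, 26.2 and 21.9 CPM and fell in GNLox from 14.6, 8.39 and 7.56 CPM to 3.25, 3.79 and 3.80 CPM (difference -3.16 ± 0.55, edgeR adjusted p = 0.0188).

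In all, 38 called genes had called responses of opposite sign in the 2 genotypes, 30 of them in the higher set. TPS13, a terpene synthase, rose in Col-0 from 6.77, 4.14 and 5.61 CPM to 13.0, 13.8 and 10.9 CPM and fell in GNLox from 11.5, 10.7 and 7.98 CPM to 5.54, 5.93 and 8.62 CPM (difference -1.78 ± 0.31, edgeR adjusted p = 0.0188), with an overlapping gene, AT4G13290, on the opposite strand. NLP4, of the family of nitrate-response regulators, rose in Col-0 from 14.3, 12.4 and 12.8 CPM to 16.5, 16.6 and 15.3 CPM. In GNLox it fell from 22.1, 19.8 and 19.4 CPM to 16.0, 16.6 and 15.0 CPM, so that the genotypes overlapped with sucrose and not without it. NLP4 overlaps AT1G20650 on the opposite strand. In the other direction, AT4G36580, an AAA-type ATPase, fell in Col-0 from 1.98, 1.81 and 2.70 CPM to 1.33, 1.85 and 1.41 CPM and rose in GNLox from 1.24, 1.68 and 1.14 CPM to 3.04, 3.06 and 2.86 CPM (difference 1.63 ± 0.27, edgeR adjusted p = 0.0186). GASA14, a gibberellin-regulated cell wall protein, fell in Col-0 from 377, 307 and 309 CPM to 249, 259 and 241 CPM. In GNLox it rose from 221, 222 and 202 CPM to 347, 261 and 289 CPM, a difference of 0.88 ± 0.16 (edgeR adjusted p = 0.0225).

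ARPN, a plantacyanin, and AT1G29100, of a heavy metal transport family, were further genes with a large lower response. ARPN rose in Col-0 from 1.76, 1.55 and 1.32 CPM to 5.11, 4.56 and 3.71 CPM and stood at 4.67, 10.6 and 8.86 CPM and at 5.02, 5.6 and 4.64 CPM in GNLox (difference -2.19 ± 0.41, edgeR adjusted p = 0.0236). It resembled SEC31A in being higher in GNLox without sucrose. AT1G29100 rose in Col-0 from 1.17, 0.362 and 0.415 CPM to 8.09, 9.74 and 5.07 CPM and stood at 0.596, 1.26 and 0.933 CPM and at 0.156, 0.221 and 0.462 CPM in GNLox (difference -5.25 ± 1.00, edgeR adjusted p = 0.0249). Its GNLox response of -1.69 ± 0.76 did not pass (edgeR adjusted p = 0.0725).

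RHS14 and CML30 carry limits of their own. RHS14, a root hair gene, had 0 reads in all Col-0 libraries without sucrose and 38, 40 and 46 with it, at least 41.0-fold more, and rose 5.86-fold in GNLox from 6, 5 and 7 reads. CML30, a calmodulin-like gene, had 0 reads in the 3 GNLox libraries with sucrose and 31 to 161 in the other 9. None of its reads was unique to it (0% unique), so its value depends on how reads that match more than 1 place were assigned, and its fall of at least 96.7-fold in GNLox is uncertain.

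Of 37 lists, 6 had a called member and 31 had none. The 29 hand-written lists without a call held 778 tested genes, of which 136 had an unadjusted p under 0.05 and DESeq2 called 28, against 14.9% and 3.99% of all genes tested. The 32 carbon starvation and amino acid breakdown genes had a median difference of -0.57, with 30 estimates below 0, 19 with an unadjusted p under 0.05 and 3 called by DESeq2. Sucrose lowered 27 of them in Col-0 (background 23.8%) and 29 in GNLox (26.1%), with medians of -0.73 and -1.32. Their summed level was 20400 to 23500 CPM in Col-0 and 22900 to 26600 CPM in GNLox without sucrose. With sucrose it was 10100 to 14900 CPM in Col-0 and 8500 to 9870 CPM in GNLox, so the ranges overlapped without sucrose and not with it. Without the GNLox library that stood apart the median was -0.51.

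Genes encoded in the organelles had the lowest medians, next to seed storage genes, and none was called by edgeR. The 84 plastid-encoded genes tested had a median of -2.27 (70 with an unadjusted p under 0.05, 31 called by DESeq2) and the 55 mitochondria-encoded genes -2.32 (46 and 20). Both moved with the GNLox library that stood apart: its summed plastid level was 51200 CPM against 9160 and 13500 CPM in the other 2 of its group, and without it each median was -1.29. In GNLox with sucrose the plastid sum was 3540, 1900 and 2620 CPM against 14600, 13600 and 7470 CPM in Col-0. The part that library make-up plays in these medians was not tested. The 16 seed storage and oil body genes had a median of -2.45 at a summed level of 6.12 to 33.6 CPM (4 with an unadjusted p under 0.05, 2 called by DESeq2). Light-harvesting antenna genes summed to 3800, 14000 and 4160 CPM in GNLox with sucrose and to 5900, 7080 and 15300 CPM in Col-0 with sucrose. Their median was -1.10 with no unadjusted p under 0.05 and 0 called by DESeq2. Replicate 2 of GNLox with sucrose was also above its group in the sums of Calvin cycle genes (6240 CPM against 1810 and 1820 CPM) and of photosystem and electron transport genes (6380 CPM against 2120 and 2210 CPM). Root hair genes rose steeply in both genotypes, with medians of 4.76 and 5.67, and 5 of 24 had an unadjusted p under 0.05 for the difference (background 14.9%; 1 called by DESeq2).

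**Figure D5:**
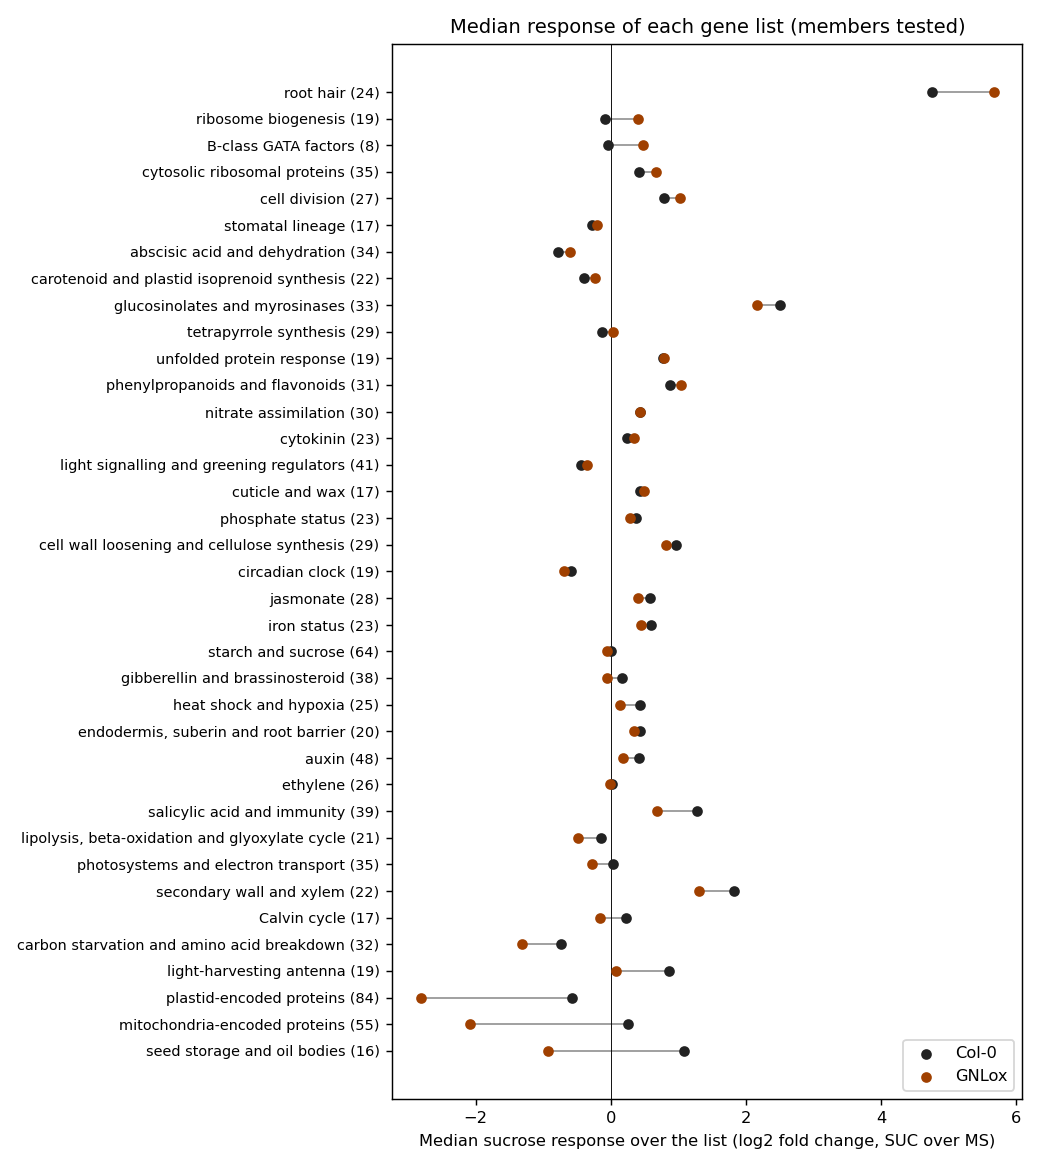
Median log2 response to sucrose (x axis) over the tested members of each gene list (y axis, number tested in brackets) in Col-0 (black) and GNLox (brown), sorted by the median difference. Most pairs lie close together, the ribosome biogenesis pair lies on both sides of 0 with GNLox to the right, and the organelle-encoded and carbon starvation pairs have GNLox to the left.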

How the data were processed

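Gene expression was measured by RNA sequencing of whole dark-grown seedlings, with RNA from the NucleoSpin kit, per the labels. Per the file headers, the authors deposited for each library read counts per gene (total, unique and exon reads) and TPM values; per the submitters' processing notes the genome was TAIR 10. For the aligner, counter, library kit and strand setting, nothing is given in the sources. Total gene read counts were fitted in edgeR 4.0.16 (limma 3.58.1, R 4.3.3) with TMM scaling, edgeR's filter on low counts by group and 6 group means over 18 libraries, using the robust quasi-likelihood test, two-sided, with Benjamini-Hochberg adjustment over 21903 genes and calls under 0.05. CPM are edgeR's counts scaled by TMM-adjusted library size. The SE was taken from each log2 value and its F statistic. Totals were 30508391 to 41942516 reads in the 4 groups compared.

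The alternatives were RLE scaling, no filter, the 4 groups alone, a replicate block, unique or exon reads, nuclear genes only, no ribosomal RNA genes, DESeq2 1.42.0 and leaving out each of 12 libraries. On simulated counts of 21764 genes the test recovered 59 of 100 differences of log2 1 and 93 of 100 of log2 2, with 6 false calls. These counts were drawn independently from the group means and spreads, without a library that stands apart, and changes were put only in genes with enough reads. The median difference of the higher set, 0.70, was below both sizes, so these rates may not hold for the data. The members and lists were chosen with earlier results of these data known.

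The naming rule took GNL and GNC, genes passing in the fit and in all 12 left-out fits with at least 2 CPM in a group, up to 4 called members of each list, and well-known members that were not called. As 1 gene met the second condition, further genes were chosen after their values were seen: families, genes of opposite response, and the 12 with the largest difference each way called in the 9 alternatives that keep all libraries. Promoters were read from the RefSeq TAIR10.1 genome, since the planned promoter table was not used here. The gnc gnl contrasts were left out.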

Additional observations from a re-analysis of the deposited data

Results flagged for a closer look

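The test of the difference between the responses of the 2 genotypes called 167 genes with a higher and 78 with a lower sucrose response in GNLox, and 38 called genes had called responses of opposite sign. Those 38 are singled out because the genotypes moved in opposite directions. Those with enough reads that were called in every alternative that kept all libraries are given here by the log2 difference of response, GNLox minus Col-0.

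Among genes of ribosomes and RNA, the difference was 0.78 for AT4G25730, 0.75 for EDA25, 0.73 for STRS2, 0.72 for AT1G06720, 0.72 for PES, 0.68 for AT1G10490, 0.63 for NOP10, 0.59 for EMB2785, 0.56 for FIB1 and 0.46 for RRP6L2. Among genes of organelles it was 1.36 for Cpn60alpha2, 0.73 for PPR336 and 0.66 for MORF5. It was 1.63 for AT4G36580, 0.88 for GASA14 and 0.84 for AT2G05120, a nucleoporin. The genes that rose in Col-0 and fell in GNLox had differences of -0.66 for NLP4, -0.71 for AT2G42900, -0.98 for SBT3.5, -1.78 for TPS13 and -3.16 for AT4G04990.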

How the results depend on the processing

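Leaving out 1 library moved the number of genes with a higher response between 1 and 255 and with a lower response between 1 and 150, ribosome biogenesis calls between 0 and 8 and calls in the other lists between 0 and 41. With only the 4 groups in the fit the counts were 74 and 114, with 4 ribosome biogenesis genes and 11 members of other lists, and 124 of the 245 genes were shared. DESeq2 gave 435, 438 and 88 (10 ribosome biogenesis genes), and shared all 245. Without a filter on low counts, 2 members of other lists were left. The cause was not tested. Over the other settings the higher count was 126 to 205 and the lower 60 to 90. The Col-0 response gave 8639 to 11501 calls and the GNLox response 10227 to 12366 over the left-out fits. No named gene reversed its direction in any fit.

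The labels do not say that replicate numbers mark a shared culture or day, so the samples were not treated as paired. Of 18 same-numbered correlations, 10 were over 0.1 (range -0.291 to 0.409), and differently numbered ones ran from -0.515 to 0.394. Whether the numbers mark a pairing was not tested. As a hint from the data, all 3 same-numbered pairs of Col-0 and GNLox without sucrose were over 0.1 (0.409, 0.126 and 0.26). The best partner, out of the 3 libraries of the other group, had the same number in 36 of 72 cases. That count takes each case more than once, so it gives a share and not a number of separate cases. With a replicate block the counts were 205 higher and 90 lower, and 226 of the 245 calls were shared. The adjusted p of the 245 calls ran from 0.0186 to the threshold. A gene that was not called may still differ.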
